A study of Homo sapiens with 6 samples.

Results

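The respiratory chain subunit genes described here are the nuclear genes for the structural subunits of complexes I to V of the mitochondrial inner membrane, together with cytochrome c (CYCS) and cytochrome c1 (CYC1). They were chosen by symbol (the NDUFA, NDUFB, NDUFC, NDUFS and NDUFV series, SDHA to SDHD, UQCR, COX4 to COX8 and the ATP5F, ATP5M and ATP5P series) from Affymetrix probe sets that name 1 gene. The rule found 79 genes of the 19775 named on the arrays. They were 32 genes of complex I, 3 of complex II, 7 of complex III, 17 of complex IV, 17 of complex V, CYCS, and 2 pseudogenes (ATP5MC2P1 and COX6A1P1). Their value is the signal of the gene's brightest probe set, with a probe set prone to cross-hybridisation (ending in _x_at) used only where a gene had no other. That was so for 2 of them, SDHA and ATP5ME.

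All 6 arrays came from LNCaP, an established human prostate cancer line, taken from a metastasis, that responds to androgen. Both groups were held for 3 days in RPMI medium free of phenol red, with 10% serum from which charcoal and dextran had removed steroids. Dihydrotestosterone (DHT), which the prostate makes from testosterone, was added at 100 nM for 48 h to 3 cultures. The other 3 were controls, and the labels do not name their vehicle. The labels call the samples of a group biological replicates without naming separate days, so p-values rest on the spread between these cultures. The test used below for genes (limma) also draws on the spread of other genes of like signal. Having 3 arrays a group limits the precision of the p-values. The comparison is of androgen-treated against steroid-starved cells.

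The respiratory chain passes electrons from NADH (complex I) and succinate (complex II) through coenzyme Q, complex III and cytochrome c to oxygen at complex IV. The protons pumped by complexes I, III and IV drive complex V, the ATP synthase. Most subunits are encoded in the nucleus, and the transcription factors NRF1, the ETS-family factor GABP and YY1 are known regulators of such genes. Normal prostate secretory cells are known for exporting citrate instead of oxidising it.

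With DHT, 10 subunit genes fell and 0 rose. Those that fell were NDUFA3, NDUFA1 and NDUFA6 of complex I, SDHC of complex II, UQCRC1, UQCRC2 and UQCRB of complex III, and ATP5F1D, ATP5ME and ATP5MJ of complex V. No complex IV subunit gene passed the test. The falls were modest, from 1.61-fold for NDUFA3 to 1.19-fold for ATP5MJ in mean signal. The test was limma on log2(signal + 16), the scale of every log2 difference given here, at a Benjamini-Hochberg adjusted p of 0.05 over all 14121 genes tested. Of the 79 genes, 75 passed the limit on dim probe sets (a mean signal near 17.3), and the other 4 were COX7A1, COX8C, ATP5MF and the pseudogene COX6A1P1.

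Read against all genes, a share of 13.3% of the 75 tested subunit genes was called lower, where 6.03% of all genes tested were lower and 7.03% higher. The subunit genes are bright, with a median signal of 1318 against 118 over all genes, and bright genes were called more often. Among the 2093 genes with a mean signal of at least 500, a limit set after the data were seen, 12.3% were called lower and 15.1% higher. Of the 62 subunit genes above that signal, 10 (16.1%) were called lower and 0 higher. At an unadjusted p of 0.05 in limma, 15 of the 75 subunit genes were lower and 2 higher. At that threshold 12.2% of all genes were lower and 13.9% higher, and of bright genes 20.1% were lower and 23.7% higher. The median log2 difference of the 75 genes was -0.08, beside 0.02 over all genes and 0.02 over the bright ones, and 50 of the 75 (66.7%) lay below 0, as did 46.9% of all genes and 46.8% of the bright ones.

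**Figure D1:**
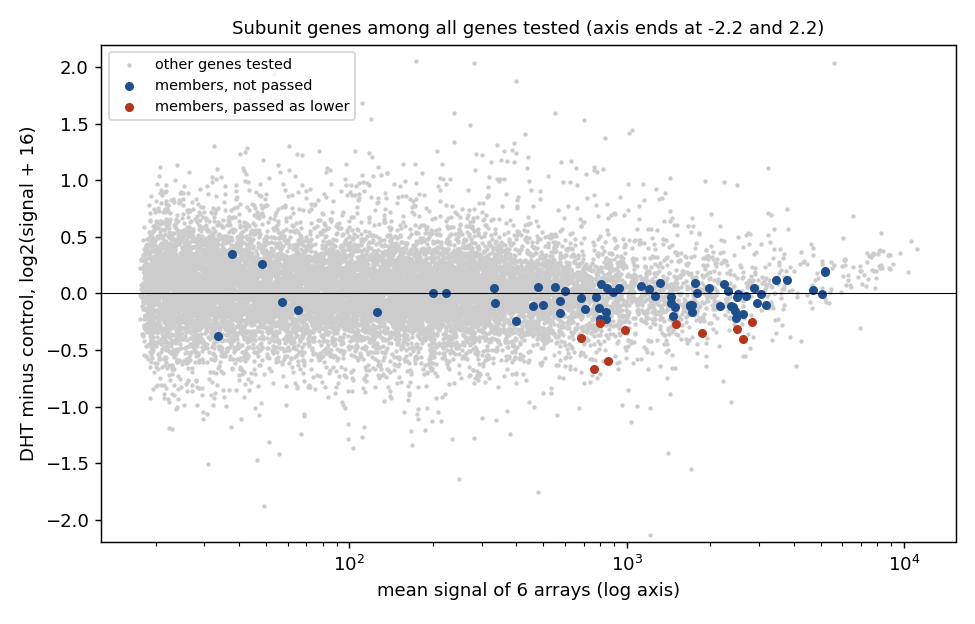
Mean signal of the 6 arrays (log axis) against the DHT minus control difference in log2(signal + 16) for each gene tested, with the few genes beyond the ends of the vertical axis not shown. Grey points are other genes, blue points subunit genes that did not pass and red points the 10 that passed as lower. Most subunit genes lie at the bright end in a narrow band around 0, and the red points reach down to -0.67.

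The whole-array values that bear on these results are few. The arrays had been scaled before deposition to a trimmed mean near 100.03, so higher and lower here mean relative to the rest of the array. Of the genes called, 53.8% were higher with DHT, 40.5% when array medians were made equal and 1.27% when arrays were scaled to the hybridisation spikes, a scaling that moved the median of all genes from 0.02 to -0.51. All 10 subunit genes that fell were below 0 under each scaling. Relative to the median of all genes, the median of the subunit genes was -0.10 as deposited and -0.11 with quantile normalisation and equal medians. Spike scaling lowers the difference of every gene by the same amount. It could therefore change neither that -0.10 nor the sign of a gene already below 0. The ratio of 3' to 5' signal, a measure of RNA length, was 1.37 ± 0.05 in controls and 1.77 ± 0.07 with DHT for ACTB, and 0.904 ± 0.044 and 1.06 ± 0.05 for GAPDH (SD, n = 3; two-sided exact permutation p = 0.1 each, the smallest that 3 against 3 can give). It moved with the groups, and its part in the differences was not tested. The androgen response was present, with all 4 tested control genes (KLK2, KLK3, TMPRSS2 and FKBP5) higher. The LNCaP markers KLK3, KRT18, KRT8, FOLH1 and HOXB13 were all detected (KRT8 and HOXB13 lower with DHT), while the signals of PTPRC and CD14, markers of leukocytes, did not exceed 21.0 on any array. CD3E, the only leukocyte marker bright enough to test, gave 34.2, 38.0 and 29.3 in the controls and 9.95, 22.2 and 11.1 with DHT (-0.73 ± 0.23, limma adjusted p = 0.0627), with all DHT arrays below the controls. The stromal marker list summed to 369 to 387 in controls and 297 to 356 with DHT, most of it COL1A1 and ACTA2, and the leukocyte list to 32.2 to 60.9 and 13.6 to 37.5. Of the 6 stromal markers, COL1A1 fell from 198 ± 22.7 to 132 ± 20.7 (-0.54 ± 0.13, limma adjusted p = 0.0183), ACTA2 had 0.10, 2 others did not pass, and DCN and LUM were too dim to test. The COL1A1 call was lost without control replicate 1 or 3 or DHT replicate 1 or 2 (adjusted p = 0.0515 to 0.0698). The part of these sums in the differences was not tested.

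The median of the subunit genes also differed between replicates, and the same median over all genes was not computed for each array. Relative to the control mean, the median over all 75 genes was 0.10, -0.01 and -0.09 on control arrays 1, 2 and 3, and -0.09, -0.01 and -0.11 on DHT arrays 1, 2 and 3. The groups therefore overlapped, and control array 1 stood highest. Without control replicate 1 the median difference was -0.03 and 3 genes passed as lower (NDUFA3, NDUFA1 and ATP5F1D). The count was 6 without control replicate 2, 5 without control replicate 3, and 4, 6 and 4 without DHT replicate 1, 2 and 3. For complex III alone the groups did not overlap, at 0.05, 0.04 and -0.11 in the controls and -0.13, -0.20 and -0.20 with DHT. The nearest arrays were close, control 3 at -0.109 and DHT 1 at -0.132. With the mean of probe sets the median difference of complex III was -0.033.

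**Figure D2:**
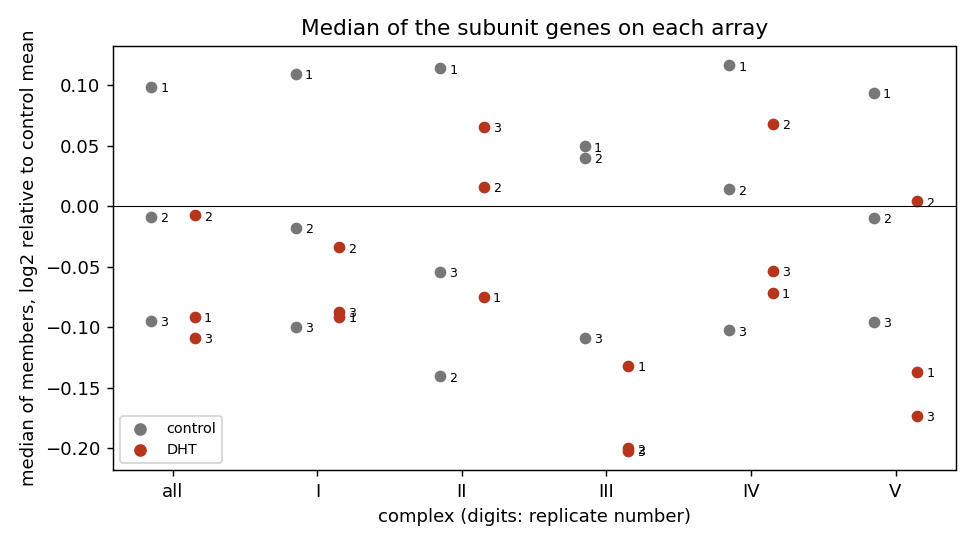
Median over the tested subunit genes of log2(signal + 16) relative to the control mean, for all 75 genes and for each complex, on each array (grey control, red DHT, digits are replicate numbers). Control array 1 is the highest control in every group of genes shown, and only for complex III do the DHT arrays all lie below the controls.

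By complex, the median log2 difference was -0.08 for the 32 tested genes of complex I (3 lower, 29 not passed), 0.05 for the 3 of complex II (1 lower, 2 not passed) and -0.19 for the 7 of complex III (3 lower, 4 not passed). It was -0.01 for the 15 of complex IV (0 lower, 15 not passed) and -0.10 for the 16 of complex V (3 lower, 13 not passed). The shares called lower were 9.4%, 33.3%, 42.9%, 0% and 18.8% for complexes I to V. That share was 6.03% over all genes tested and 12.3% among bright genes. Differences between complexes were not tested, since genes of a complex are not replicates. All 3 DHT arrays lay below all 3 controls for 16 of the 75 genes (21.3%, where 14.1% of all genes and 21.5% of bright genes did so) and above them for 2, ATP5F1A and ATP5F1B (17.0% of all genes and 27.1% of bright ones).

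**Figure D3:**
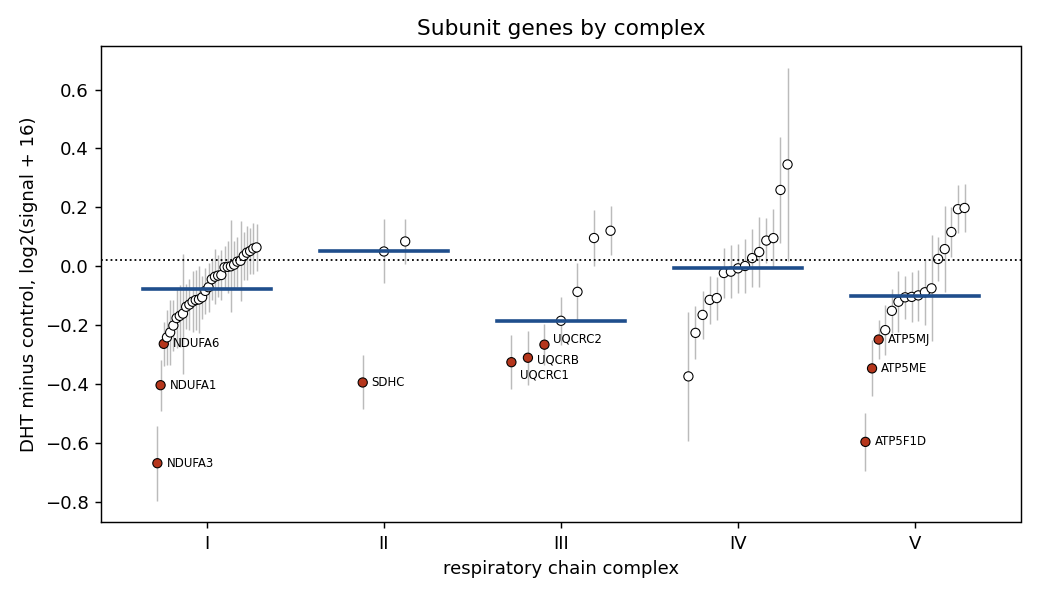
DHT minus control in log2(signal + 16) for each tested subunit gene of complexes I to V, ordered within a complex, with limma's standard error as bars. Red points passed as lower, open points did not pass, blue lines are the median of a complex (-0.08, 0.05, -0.19, -0.01 and -0.10) and the dotted line is the median of all genes at 0.02.

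Of the genes that fell, 7 had an entry in RefSeq's promoter table (GRCh38.p14), as did 64 of the 75 tested genes. The NRF1 motif (GCGCA, any base, then GCGC, or its reverse complement) was in 4 of these 7, and not in NDUFA1, NDUFA6 or UQCRC2. It was in 23.4% of the tested subunit genes with an entry and in 12.4% of all such tested genes. The difference between these shares was not tested. The 250 bases before the start of the 4 genes with the motif are given 5′ to 3′ with each match in capitals. They are followed by UQCRQ, a complex III gene that did not pass and whose window held an ETS match (CCGGAAGT, or ACTTCCGG on the other strand). SDHD, which did not pass and is not printed, held both motifs.
NDUFA3 (chr19:54102605-54102854, plus strand): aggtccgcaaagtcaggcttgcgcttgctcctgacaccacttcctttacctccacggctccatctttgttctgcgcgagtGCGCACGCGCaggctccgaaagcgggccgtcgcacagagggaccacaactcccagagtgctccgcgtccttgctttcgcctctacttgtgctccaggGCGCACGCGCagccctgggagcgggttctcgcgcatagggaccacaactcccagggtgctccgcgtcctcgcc
UQCRC1 (chr3:48609647-48609896, minus strand): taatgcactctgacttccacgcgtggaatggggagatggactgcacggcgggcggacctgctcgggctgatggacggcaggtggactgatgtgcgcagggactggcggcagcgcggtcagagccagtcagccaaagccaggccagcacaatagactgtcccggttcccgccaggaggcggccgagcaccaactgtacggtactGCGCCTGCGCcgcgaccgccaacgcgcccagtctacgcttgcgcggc
ATP5ME (chr4:674277-674526, minus strand): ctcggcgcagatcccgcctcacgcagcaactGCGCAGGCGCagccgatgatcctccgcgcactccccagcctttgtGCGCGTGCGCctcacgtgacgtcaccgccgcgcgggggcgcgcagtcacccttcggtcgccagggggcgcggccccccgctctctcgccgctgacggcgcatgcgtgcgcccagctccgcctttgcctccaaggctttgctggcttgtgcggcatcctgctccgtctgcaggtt
ATP5MJ (chr14:103921530-103921779, minus strand): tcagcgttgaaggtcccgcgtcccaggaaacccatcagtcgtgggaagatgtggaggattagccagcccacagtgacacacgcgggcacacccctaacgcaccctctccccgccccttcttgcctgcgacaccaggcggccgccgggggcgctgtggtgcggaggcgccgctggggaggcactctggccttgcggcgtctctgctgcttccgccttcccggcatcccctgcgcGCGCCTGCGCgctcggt
UQCRQ (chr5:132866392-132866641, plus strand): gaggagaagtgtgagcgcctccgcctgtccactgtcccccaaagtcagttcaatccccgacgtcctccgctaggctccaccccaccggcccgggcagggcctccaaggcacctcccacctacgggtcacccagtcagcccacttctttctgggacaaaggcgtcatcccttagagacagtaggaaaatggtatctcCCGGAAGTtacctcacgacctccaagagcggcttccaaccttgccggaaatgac
The matches began 170 and 73 bases before the start in NDUFA3, 47 in UQCRC1, 219 and 174 in ATP5ME, 17 in ATP5MJ and 54 in UQCRQ.

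Over windows of 300 bases (250 before to 50 after a start, both strands, any listed start of a gene), the NRF1 motif was found in 15 of 64 tested subunit genes (23.4%), beside 12.4% of the 11354 tested genes with an entry. It was in 6 of 30 genes of complex I, 2 of 2 of complex II (SDHA and SDHD, which did not pass), 3 of 5 of complex III, 0 of 13 of complex IV and 4 of 13 of complex V. The ETS motif CCGGAAGT was in 11 of 64 (17.2%, beside 8.93%) and in 0 of the 7 genes that fell. A YY1 motif (AAGATGG followed directly by CGG) was in 7 of 64 (10.9%, beside 2.89%), and in 2 of those 7. The hexamer AGAACA, bound by the androgen receptor, was in 10 of 64 (15.6%, beside 13.4%) and in 1 of those 7. No matches of different motifs overlapped in these windows. A match is a string of letters and no evidence of binding.

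Complex I opens the chain, and its nuclear genes divide into core subunits, which carry the flavin and iron-sulfur clusters or bind the quinone, and accessory subunits around them. None of the 5 tested core genes passed, with a median of -0.00. NDUFV1, which holds the flavin, had -0.17 ± 0.10 (SE), and NDUFS1 (-0.04), NDUFS7 (-0.00), NDUFV2 (0.01) and NDUFS3 (0.02) lay nearer to 0. Of the dimmer probe sets of NDUFS1, 1 passed as lower (-0.35, limma adjusted p = 0.0447 over probe sets) and another had 0.31. The 27 accessory genes had a median of -0.11, and 21 of them lay below 0.

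NDUFA3, a small accessory membrane subunit, showed the largest fall of all the genes of the chain. Its signal was 1132, 878 and 807 in the controls and 507, 664 and 575 with DHT. All DHT arrays were lower than all controls, though control 1 stood well above the other controls. The means were 939 ± 171 and 582 ± 79.1 (SD, n = 3), with a log2 difference of -0.67 ± 0.13 (SE; limma adjusted p = 0.00562).

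NDUFA1, an accessory membrane subunit encoded on the X chromosome and needed for assembly, gave 3310, 2947 and 2698 in the controls and 2107, 2374 and 2261 with DHT, again without overlap. Its log2 difference was -0.40 ± 0.09 (limma adjusted p = 0.011). NDUFA6, an accessory subunit of the LYR motif family, gave 909, 887 and 824 against 742, 748 and 685. That difference of -0.26 ± 0.08 (limma adjusted p = 0.0403) was lost without any single array (adjusted p = 0.0504 to 0.137), while NDUFA3 and NDUFA1 passed in all 6 such fits (adjusted p = 0.00688 to 0.026 and 0.0106 to 0.0464). A dimmer probe set of NDUFA6 had 0.13 (adjusted p = 0.578 over probe sets), and the mean of the 2 probe sets was -0.07 (adjusted p = 0.712).

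The other accessory genes of complex I did not pass. NDUFV3 (-0.24), NDUFC1 (-0.20) and NDUFS4 (-0.11) had DHT arrays that were all below the controls, and the highest value of the complex was that of NDUFB5 at 0.06 ± 0.08. NDUFB4, at 5067 ± 498 in controls and 5051 ± 317 with DHT, differed by less than its spread. A dim probe set of NDUFB1 was the only 1 of the 132 tested probe sets of these genes to pass as higher (0.57, limma adjusted p = 0.0322 over probe sets), where the bright NDUFB1 probe set had -0.03. In all, 16 of the 132 passed as lower and 1 as higher. Over all probe sets tested, 10.3% passed in either direction, and the share that passed as lower alone was not computed.

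Complex II, succinate dehydrogenase, links the citrate cycle to the chain, and its subunit genes did not move alike. SDHC, a membrane anchor, gave 841, 702 and 790 in the controls and 538, 642 and 583 with DHT, with no overlap between groups. Its log2 difference was -0.39 ± 0.09 (limma adjusted p = 0.0161). Of its other probe sets, a pair passed as lower (-0.32 and -0.43), another had -0.21 and 3 dim ones -0.01, -0.03 and 0.19, so that the mean over probe sets was -0.17 (adjusted p = 0.142). SDHC did not pass without control replicate 1 or 3 or DHT replicate 1 or 3 (adjusted p = 0.0504 to 0.0613). SDHD, the other membrane anchor, had 0.08 ± 0.08 and the flavoprotein SDHA 0.05 ± 0.11.

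Complex III takes electrons from coenzyme Q to cytochrome c, and the mRNA signals for both of its core proteins fell. UQCRC1 gave 1134, 1114 and 1040 in the controls and 936, 937 and 752 with DHT. UQCRC2 gave 1667, 1684 and 1595 against 1299, 1380 and 1427. Neither gene's groups overlapped, and the log2 differences were -0.33 ± 0.09 for UQCRC1 and -0.27 ± 0.07 for UQCRC2 (limma adjusted p = 0.0394 and 0.0281).

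UQCRB, a small subunit near the quinone site, gave 2704, 3111 and 2516 in the controls and 2067, 2224 and 2402 with DHT, at -0.31 ± 0.09 (limma adjusted p = 0.0452). The redox subunit CYC1 had 0.10 ± 0.09 and the small subunit UQCRQ 0.12 ± 0.08, both above 0 and not passed. UQCR10 had -0.19 and UQCR11 -0.09. The calls in complex III lay near the threshold, and each was lost in most fits with an array left out. The differences of these genes stayed between -0.38 and -0.22 in those fits. UQCRC1 did not pass without any control array or without DHT replicate 3 (adjusted p = 0.0623 to 0.131), UQCRC2 without any control array or without DHT replicate 1 or 2 (0.0511 to 0.0943), and UQCRB without control replicate 1 or 2 or any DHT array (0.0535 to 0.151). UQCRC2 had -0.15 in its next probe set, and -0.03 in its averaged probe sets (adjusted p = 0.819). UQCRB had -0.30 (passed as lower) and -0.01 in its other tested probe sets, and -0.21 in its averaged probe sets (limma adjusted p = 0.108). CYCS, which carries electrons from complex III to complex IV, had 0.05 ± 0.07. The tested pseudogene, ATP5MC2P1, had -0.14 ± 0.19.

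Complex IV, cytochrome c oxidase, reduces oxygen, and none of its 15 tested genes passed. The lowest and the highest differences were both in dim isoforms of restricted tissues. COX6A2, the heart and muscle form, gave 29.0, 39.8 and 51.2 in the controls and 24.7, 34.5 and 21.8 with DHT (-0.37 ± 0.22), and COX4I2, the lung form, 44.7, 42.8 and 9.87 against 57.4, 45.9 and 25.6 (0.35 ± 0.33). The groups overlapped for both.

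The usual partners of these isoforms were far from dim. COX4I1 had -0.11 ± 0.07 and COX6A1 0.03 ± 0.10. COX6B1 had -0.02 and its testis form COX6B2 0.26, COX7B had 0.10 and its testis form COX7B2 0.00, and COX8A had -0.02. The signs of COX6A1, COX6B1, COX7B, COX7B2, COX8A and COX4I2 turned with an array left out, and those of COX6B2 and COX7A2 with spike scaling. COX7B2 was measured at 223 ± 14.6 in controls and 223 ± 2.54 with DHT. The muscle form COX7A1 and the testis form COX8C stayed under the limit on dim probe sets. COX7A2 had 0.09 ± 0.08, and COX7A2L, a factor that joins complexes III and IV, had -0.23 ± 0.09, the lowest among the bright genes of complex IV (limma adjusted p = 0.133). COX5B had all DHT arrays below the controls (-0.17 ± 0.08, limma adjusted p = 0.221).

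Complex V, the ATP synthase, held genes on both sides of 0. The genes of the catalytic head, ATP5F1A (alpha) and ATP5F1B (beta), lay above 0, and the 3 tested genes of the central stalk lay below. For ATP5F1C of the stalk this was -0.07 in a dim probe set, beside 0.11, 0.07 and -0.06 in its bright _x_at probe sets. The membrane part was mixed, with ATP5MK (0.12 ± 0.08) and ATP5MC1 above 0 and others below. ATP5F1D, the delta subunit of the central stalk, gave 1153, 932 and 1028 in the controls and 734, 709 and 600 with DHT. No DHT array reached the lowest control. The log2 difference was -0.60 ± 0.10 (limma adjusted p = 0.00267), its other probe set also passed as lower (limma adjusted p = 0.00265 over probe sets), and it passed without each array in turn (adjusted p = 0.00343 to 0.0122).

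ATP5ME and ATP5MJ, small subunits of the membrane part, fell as well. ATP5ME gave 2377, 1979 and 1935 against 1555, 1812 and 1561 (-0.35 ± 0.09, limma adjusted p = 0.0339), read from a probe set prone to cross-hybridisation. ATP5MJ gave 3177, 3061 and 3011 against 2541, 2614 and 2620 (-0.25 ± 0.07, limma adjusted p = 0.031). The groups did not overlap for either gene. The second probe set of ATP5ME had -0.36 (limma adjusted p = 0.159 over probe sets) and that of ATP5MJ -0.19 (0.391). With probe sets averaged, neither gene passed (limma adjusted p = 0.0959 for ATP5ME and 0.132 for ATP5MJ). ATP5ME did not pass without control replicate 1, DHT replicate 1 or DHT replicate 3 (adjusted p = 0.11 to 0.116), and ATP5MJ without control replicate 1 or 3 or any DHT array (0.0593 to 0.0989).

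ATP5F1A gave 4806, 5222 and 4489 in the controls and 5275, 5408 and 5916 with DHT, at 0.19 ± 0.08 (limma adjusted p = 0.158). ATP5F1B gave 5123, 5079 and 4343 against 5440, 5568 and 5638, at 0.20 ± 0.08 (limma adjusted p = 0.147). Both had all DHT arrays above the controls and neither passed. Their values were 0.05 and 0.07 with quantile normalisation and -0.33 each with spike scaling. Both belong to the 92 genes with a mean signal of at least 4000, a limit set after the data were seen, whose median log2 difference was 0.23, while NDUFB4 (-0.00) and COX6A1 (0.03) do so too.

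The genes for the c ring, the rotor that turns as protons pass, encode the same mature protein and differ in their import sequences. ATP5MC1 had 0.06 ± 0.15, ATP5MC2 -0.12 ± 0.10 and ATP5MC3 -0.15 ± 0.08, and none passed. A second bright probe set of ATP5MC3 passed as lower (-0.40, limma adjusted p = 0.00765 over probe sets). The sign of ATP5MC1 turned when arrays were left out or rescaled. The 4 genes of the peripheral stalk had a median of -0.10, with 1 dimmer probe set of ATP5PO passing as lower (-0.51, limma adjusted p = 0.0322 over probe sets). In the central stalk, ATP5F1E had -0.22 ± 0.09 with all DHT arrays below the controls, and ATP5F1C, whose only probe set without an _x_at ending was dim at 57.1, had -0.07, beside 0.11, 0.07 and -0.06 in its bright _x_at probe sets.

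**Figure D4:**
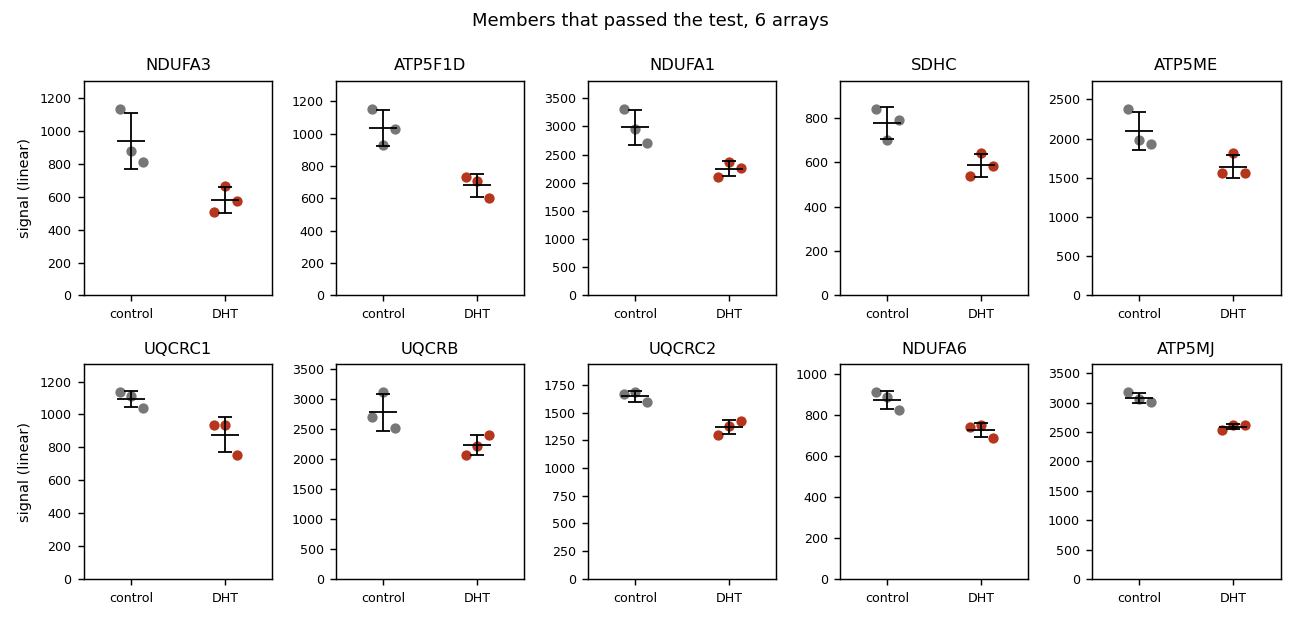
Signal on a linear scale for each of the 10 subunit genes that passed, by array (points), with the mean and SD of 3 arrays in black. Every DHT point lies below every control point, and the vertical axes start at 0.

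The factors that assemble the complexes are known to be needed for the subunits to join. Of 59 tested assembly genes, 4 rose and 4 fell (51 not passed), with a median of 0.04. Over all genes 7.03% rose and 6.03% fell, so these counts lie near the background. NDUFAF4, a complex I assembly factor, fell from 601 ± 36.6 to 381 ± 25.9 (-0.64 ± 0.08, limma adjusted p = 0.000662), and DMAC2L, an ATP synthase coupling factor, from 498 ± 12.1 to 329 ± 13.7 (-0.58 ± 0.08). CMC2, a copper-handling protein of complex IV, rose from 421 ± 55.1 to 707 ± 37.4 (0.73 ± 0.10, limma adjusted p = 0.000641), and FOXRED1 of complex I from 158 ± 8.81 to 239 ± 20.7 (0.56 ± 0.10). These 4 passed without each array in turn, while DMAC2L had -0.16 in its averaged probe sets (adjusted p = 0.451), and CMC2 (0.21) and FOXRED1 (0.03) did not pass with spike scaling.

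COX11, which delivers copper to complex IV, fell (-0.36 ± 0.08), as did PET100 (-0.37 ± 0.10), and COX10, which makes heme for the complex, rose (0.52 ± 0.15), as did TMEM126B (0.30 ± 0.08). COX11 had -0.14 in its averaged probe sets (adjusted p = 0.47), and COX10 (0.23) and TMEM126B (0.19) did not pass there either and lay below 0 with spike scaling. PET100 did not pass without control replicate 1 or 3 or DHT replicate 1 or 3 (adjusted p = 0.065 to 0.0945), COX10 without any array except control replicate 1 (0.095 to 0.158), nor TMEM126B without any array except control replicate 1 (0.0592 to 0.0891). The count by complex was 2 higher and 1 lower of 17 for complex I with its acyl carrier, 0 of 4 for complex II, 0 of 6 for complex III, 2 higher and 2 lower of 25 for complex IV and 1 lower of 7 for complex V, where the inhibitor ATP5IF1 had -0.01.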

How the data were processed

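Biotin-labelled RNA of 6 LNCaP cultures was read on 1-colour Affymetrix arrays. The values the authors deposited are signal intensities, not logged. MAS5 is named in the submitters' processing notes, with the build not given in the sources used here. This method subtracts an estimated background, so dim values are noisy. The deposited arrays share a trimmed mean of 100.03 (2% trimmed at both ends), so a change in total mRNA cannot be seen. Groups came from the sample titles, and 0 columns were unused.

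Of 54675 probe sets, 62 array controls were left out and 41091 name 1 gene in the platform annotation; 41037 matched a GRCh38.p14 gene table, which changed 0 symbols. The lowest 40% by mean log2 signal were removed, leaving 32768 probe sets and 14121 genes. limma 3.58.1 in R 4.3.3 (lmFit, eBayes with an intensity trend, no block) ran on log2(signal + 16), which understates changes of dim genes, with Benjamini-Hochberg adjustment over genes. The fit was tested on simulated data. Ratios were compared in Python 3.11.15 with scipy 1.17.1.

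The genes, the 13 lists and the alternatives were chosen with earlier results of these data known. Named are the genes that passed, the extremes of each complex, the isoform families and, of the other lists, up to 5 that passed; other names (ATP5F1A, ATP5F1C, ATP5F1E, ATP5MK, ATP5PO, NDUFB1, NDUFB4, NDUFC1, NDUFS4, NDUFV3, COX5B, UQCR10, UQCR11, SDHA, CYC1, CYCS, ATP5IF1 and the core genes of complex I) were picked with their values in view, to fill out a count or a range. Motifs came from textbook knowledge. Alternatives were pseudocounts of 1 and 64, other limits on dim probe sets, 3 other scalings, limma without a trend or made robust, replicate number as block, probe sets averaged per gene, the probe set chosen after the limit, and each array left out.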

Additional observations from a re-analysis of the deposited data

How the results depend on the processing

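The number of subunit genes lower with DHT was 10, and it was 5 with no filter on dim probe sets and with equal array medians, 73 with spike scaling, 0 in limma without the intensity trend, 4 with the mean of probe sets and 3 to 6 with an array left out. None was higher in any of these fits. It was 14 with quantile normalisation and 10 under each pseudocount, with the lowest 60% left out, with the robust fit and with the probe set chosen after the limit. The replicate numbers share no more than a number (correlations of deviations of -0.01, -0.03 and -0.00 for numbers 1, 2 and 3), and the replicate block left 8 lower. It lost UQCRB (adjusted p = 0.0549) and ATP5MJ (0.0619). Without the trend, 389 genes of the array passed as higher and 290 as lower, against 993 and 852.

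The median of all subunit genes was -0.15 with equal medians, -0.61 with spike scaling and -0.12 to -0.026 with an array left out. That of complex I was -0.14, -0.61 and -0.12 to -0.022, and -0.040 with the mean of probe sets. That of complex III was -0.25, -0.71 and -0.26 to -0.13, -0.23 with quantile normalisation and -0.033 with the mean of probe sets. With spike scaling complex II had -0.48, complex IV -0.53 and complex V -0.63; with an array left out they ran from -0.026 to 0.066, -0.072 to 0.040 and -0.15 to -0.049. The cause of these shifts was not tested, except that spike scaling subtracts the same amount from every gene.

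Some genes above 0 lay below it with spike scaling, which lowered every gene. There the values were -0.46 for NDUFB5, -0.44 for SDHD, -0.41 for UQCRQ, -0.18 for COX4I2, -0.33 for ATP5F1B and for ATP5F1A, -0.50 for COX6A1, -0.27 for COX6B2, -0.44 for COX7A2, -0.43 for COX7B, -0.53 for COX7B2, -0.47 for ATP5MC1, -0.23 for TMEM126B, -0.0053 for COX10 and -0.13 for SQOR. With equal medians COX6A1 had -0.036, COX7B2 -0.059 and ATP5MC1 -0.0040, and with quantile normalisation COX6A1 had -0.072. With an array left out COX6B1 ran from -0.077 to 0.062, COX8A from -0.11 to 0.040, ATP5MC1 from -0.071 to 0.21, COX4I2 from -0.057 to 0.58, COX6A1 from -0.093 to 0.10, COX7B from -0.00016 to 0.21 and COX7B2 from -0.050 to 0.033. The ACTB and GAPDH ratios were higher with DHT by 0.37 to 0.44 and 0.13 to 0.18 with an array left out. A planned move of NDUFA4 and NDUFA4L2 to complex IV was not run, since neither gene was analysed here. Dim isoforms, with standard errors of 0.18 to 0.33, are least resolved.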

Other observations

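Around the chain, most genes that supply or regulate it did not pass. These counts are to be read beside the 7.03% of all genes that rose and the 6.03% that fell (13.1% in either direction). Of 19 tested genes that make or reduce coenzyme Q, SQOR, which feeds electrons from sulfide to coenzyme Q, rose from 214 ± 28.9 to 285 ± 22.02 (0.39 ± 0.11, limma adjusted p = 0.0358) and 18 did not pass, with a median of 0.02. SQOR did not pass without control replicate 2 or 3 or DHT replicate 1 or 3 (adjusted p = 0.107 to 0.121). Of 6 tested genes that exchange ADP, ATP and phosphate, VDAC1, the main channel of the outer membrane, fell from 2060 ± 126 to 1515 ± 162 (-0.44 ± 0.09, limma adjusted p = 0.00757) and passed without each array in turn.

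Of 16 tested regulators of mitochondrial gene expression, 2 fell and 14 did not pass, a share near the 13.1% of all genes called, with a median of 0.04. SSBP1, which binds single-stranded mitochondrial DNA, fell from 1477 ± 63.1 to 1105 ± 56.9 (-0.41 ± 0.07, limma adjusted p = 0.00373), though its probe sets averaged -0.01 (adjusted p = 0.97). TFB1M, which methylates mitochondrial ribosomal RNA, fell from 97.3 ± 12.6 to 59.9 ± 1.97 (-0.57 ± 0.14), with -0.10 as the average of its probe sets (adjusted p = 0.681) and no pass without control replicate 1 or 3 or DHT replicate 1 or 3 (adjusted p = 0.0522 to 0.0896). The factors whose motifs were searched had -0.19 (NRF1), 0.06 (GABPA) and -0.02 (YY1), none of which passed.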
